A study of Mus musculus with 10 samples.

Results

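The genes studied here encode the matrix metalloproteinases (Mmp), the ADAM and ADAMTS proteases and the tissue inhibitors of metalloproteinases (Timp), as measured in 5 cell populations of the mouse hair follicle and its dermis. Membership followed from the gene symbol. Every gene whose symbol in the platform annotation began with Mmp, Timp, Adam or Adamts and a number was taken, which gave 54 genes of the 12393 that the array names, on 83 of 20380 probe-sets that name a single gene. There were 18 Mmp genes, 25 Adam genes, 7 Adamts genes and 4 Timp genes. No measured value decided whether a gene was taken, and all 54 were tested. A further probe-set names Adam1a together with a second gene and was not used.

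Matrix metalloproteinases are zinc endopeptidases that are secreted or held at the cell membrane, and cleave collagens and other proteins of the extracellular matrix (ECM). ADAM proteases sit in the cell membrane, where the active ones shed the outer domains of other membrane proteins, among them Notch receptors and precursors of growth factors, whereas ADAMTS proteases are secreted and several of them cleave the large proteoglycans versican and aggrecan. Timp proteins bind the active sites of these enzymes and block them. The growing follicle pushes down through the dermis and stays separated from it by a basement membrane, so that both its epithelium and its mesenchyme face a matrix that is turned over.

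The cells came from the backskins of postnatal day 4 (P4) mice that carried both the K14-H2BGFP and the Lef1-RFP transgenes, in which the K14 promoter marks the skin epithelium in green and a fragment of the human Lef1 promoter marks the dermal papilla and the melanocytes in red. After dispase had removed the epidermis, the dermis of pooled backskins was digested with collagenase and briefly with trypsin, and cells were sorted. Melanocytes (Mc) were RFP-high and CD117-positive, dermal papilla cells (DP) RFP-high and GFP-negative, cells of the dermal fraction enriched in fibroblasts (DF) negative for both reporters, outer root sheath cells (ORS) GFP-high and RFP-negative, and matrix cells (Mx) GFP-low and RFP-negative. DP and DF had first been depleted of cells carrying CD117, CD45 or CD34. There were 2 arrays for each of the 5 populations, 10 in all. The methods describe 2 wholly independent datasets over the 5 populations, and do not say which arrays shared a preparation. All the cells thus shared both transgenes and the enzyme digestion, and no population from untreated skin stood beside them.

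Signals are the linear intensities that the authors computed with MAS5. Where several probe-sets named a gene, the brightest on average (mean log2 signal over the 10 arrays) stood for it, and a signal of 200 in both arrays of a population was the bound at which the gene was counted there. Array medians lay between 49.9 and 90.9, with the lowest in Mx and the highest in DP. As a check of the sorts, 4 marker genes were read for each population. All 4 reached 200 in their own population for Mc, DP and ORS, and 3 of 4 did for DF and Mx. The exceptions were Lum in DF and Foxn1 in Mx, and Dcn, listed for DF, was brightest in Mx. By this count the DF list did not set DF apart, since 4 of its genes reached 200 in DP and 3 in each of Mc, ORS and Mx. Lum was higher in DP (328.3 and 306.7) than in DF (148.2 and 158.2). Markers were also read outside their own population. The 4 Mc genes summed to 2082.5 to 4024.5 in DP and 496.3 to 1590 in DF, against at most 282.9 in ORS and Mx. The 4 Mx genes summed to 676.7 to 1109.4 in DP, 599.4 to 2807.4 in DF and 856 to 1572.7 in ORS. The 4 ORS genes summed to 717.4 to 1648.9 in DF and 3892 to 4754.6 in Mx. The 4 DF genes summed to 19776.4 to 20409.3 in DF, 14004.7 to 14617.7 in DP and 4191.3 to 5535.1 in Mx. DF also carried genes of other dermal cells. The summed signal of 5 endothelial genes was 2482 to 3438 in DF and at most 234.9 elsewhere, and that of 5 pericyte and smooth muscle genes was 3442 to 5762 in DP, 17388 to 19305 in DF, 2042 to 2743 in ORS and at most 360.4 in Mc and Mx. Alas2, a gene of red cell precursors, stood at 3462 and 4266 in DF and at most at 7.8 elsewhere. The summed signal of 5 immune genes did not exceed 296.1 on any array. Because these are bulk samples, fewer cells of a type and less RNA per cell cannot be told apart. The arrays came from 2 chip lots, here called A and B. Lot A held both Mx arrays and 1 array of each other population, and lot B held the other 4 arrays.

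Upstream sequences are shown first, because the results turn on 2 sets of members, a run of neighbouring Mmp genes with low signals on every array and genes that were higher in the dermal populations. RefSeq start sites of the mouse build GRCm38.p6 were given for 30 of the 54 genes, on 35 entries. The stretches below are the 250 bases before the start, written 5′ to 3′ on the strand of the gene. Capitals mark an AP-1 motif (TGAGTCA, or TGACTCA on the other strand), an SP1 motif (GGGCGG or CCGCCC) or a TATA motif (TATAAA or TTTATA), and neighbouring SP1 matches may overlap. Over all 32851 promoters of the same length, 4.46% held the AP-1 letters, 32.7% the SP1 letters and 12.4% the TATA letters. The first and second sequences belong to Mmp13, a collagenase, at chr9:7272264-7272513 on the plus strand, and Mmp3, a stromelysin, at chr9:7445572-7445821 on the plus strand. The others belong to Mmp14, a membrane-type metalloproteinase, at chr14:54431348-54431597 on the plus strand, and Timp2 at chr11:118355412-118355661 on the minus strand.

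Mmp13: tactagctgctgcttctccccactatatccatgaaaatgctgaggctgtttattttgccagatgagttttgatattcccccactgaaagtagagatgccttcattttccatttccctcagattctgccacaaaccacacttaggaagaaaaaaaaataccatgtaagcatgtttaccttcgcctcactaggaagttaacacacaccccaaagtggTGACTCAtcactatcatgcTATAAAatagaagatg
Mmp3: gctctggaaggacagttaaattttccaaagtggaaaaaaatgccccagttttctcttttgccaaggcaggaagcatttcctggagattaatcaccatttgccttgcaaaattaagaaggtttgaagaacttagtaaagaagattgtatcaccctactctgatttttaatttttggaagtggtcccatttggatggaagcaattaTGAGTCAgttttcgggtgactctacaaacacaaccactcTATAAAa
Mmp14: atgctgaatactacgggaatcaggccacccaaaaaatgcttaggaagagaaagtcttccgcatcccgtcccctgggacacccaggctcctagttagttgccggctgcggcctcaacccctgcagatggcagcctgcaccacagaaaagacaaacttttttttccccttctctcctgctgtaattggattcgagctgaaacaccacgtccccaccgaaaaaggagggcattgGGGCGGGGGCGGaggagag
Timp2: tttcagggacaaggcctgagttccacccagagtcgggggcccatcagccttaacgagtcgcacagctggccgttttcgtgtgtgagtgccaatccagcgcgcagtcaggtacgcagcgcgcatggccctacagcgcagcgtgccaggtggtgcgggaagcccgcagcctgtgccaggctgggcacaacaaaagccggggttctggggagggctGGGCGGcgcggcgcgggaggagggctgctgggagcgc

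Mmp13 and Mmp3 belong to a run of 9 Mmp genes on chromosome 9 that follow each other with at most 1 other protein-coding gene between neighbours, namely Mmp13, Mmp12, Mmp1b, Mmp3, Mmp1a, Mmp10, Mmp8, Mmp20 and Mmp7. All 9 had an upstream sequence, and counting any of a gene's entries, 7 of them held the AP-1 letters, 7 the TATA letters and none the SP1 letters. Among the 17 members that reached 200 in some population, 8 had an upstream sequence, of which 7 held the SP1 letters, 1 the AP-1 letters and 1 the TATA letters. The other 28 members had an upstream sequence for 13 genes, and SP1 letters stood in 4 of these and the other letters in none. The set that reached 200 is not the set of genes higher in DF and DP described below, of which 12 of 17 reached it. These matches describe the letters in the window only, and no binding was measured here.

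None of the 9 clustered genes passed a signal of 80.5 on any of the 10 arrays. They include the interstitial collagenases Mmp13, Mmp1a, Mmp1b and Mmp8, the stromelysins Mmp3 and Mmp10, the matrilysin Mmp7, the macrophage elastase Mmp12 and the enamel protease Mmp20. Mmp13 read between 0.5 and 15.8, and Mmp3 between 12.5 and 41.2. The fourth gene listed with the stromelysins and the matrilysin, Mmp11, reached at most 91.5, so that no member of these groups came to the bound in any of the 5 populations. Mmp9, the second gelatinase, lay outside the cluster and read between 27.6 and 62.2.

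The bound was reached somewhere by 17 of the 54 members (31.5%), whereas 42.4% of all named genes did so. DF had the most, 15 members, where the share of all genes was 31.4%. DP had 12 (all genes, 31.6%) and Mc 9 (all genes, 27.1%). The epithelial populations had fewer, with 6 in ORS (all genes, 29.6%) and 2 in Mx (all genes, 25%). With all arrays brought to a common median signal, 4 members reached the bound in Mx. Only Adam10 reached it in all 5 populations, as did 17.4% of all genes. The mean signal of the 17 was highest in DF for 12, in DP for 2, in Mc for 2 and in ORS for 1, and it was lowest in Mx for 14. This tally describes the 17 only. The bound was reached in a single population by 5 of them, which favours that population as their highest, and no such tally was made over all genes. A sign of RNA quality moved with Mx. The 3′/5′ ratio of the actin control probe-sets was 2.09 and 1.73 on the Mx arrays and 1.22 to 1.47 on the other 8 arrays, whereas that of Gapdh was 1.02 and 1.16 in Mx and 0.795 to 1.19 elsewhere. The part of RNA quality in the low Mx signals was not tested.

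**Figure D1:**
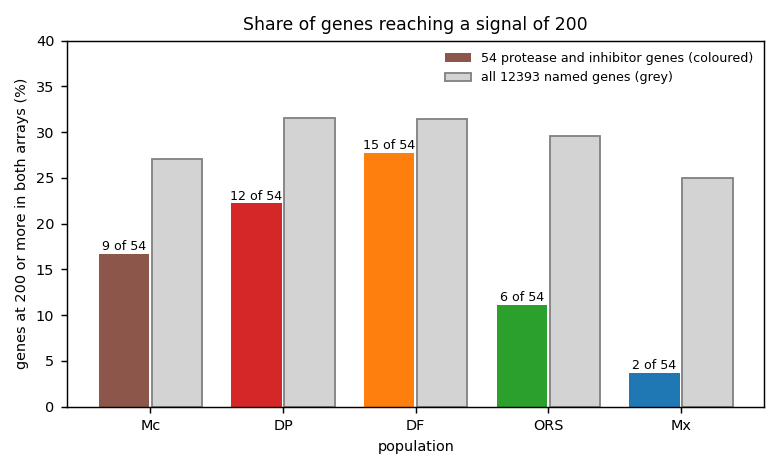
Percent of genes with a signal of 200 or more in both arrays, by population. Coloured bars show the 54 protease and inhibitor genes, with their number above, and grey bars all 12393 named genes; the coloured bar falls short of the grey one most in ORS, with 6 genes, and Mx, with 2.

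The other 37 members stayed below the bound. Of these 30 never passed 100 and 23 never passed 50. Just outside the bound lay Mmp23, which differs from most Mmp proteins by having no hemopexin domain, with 111.5 and 220.4 in DP and 186 and 369.8 in DF, against at most 55.6 in ORS and Mx (2.76-fold, 1.46 ± 0.23 SE on the log2 scale, limma adjusted p = 0.002). Just inside lay Adam4, with 209.6 and 242.1 in DP and between 72.1 and 193.2 on the other arrays. Its DP arrays were the highest, but the difference from Mc did not pass the test (Mc over DP, log2 difference -0.37 ± 0.17 SE, limma adjusted p = 0.21). Among the 16 Adam genes not listed as sheddases, Adam4 was the one that reached the bound.

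**Figure D2:**
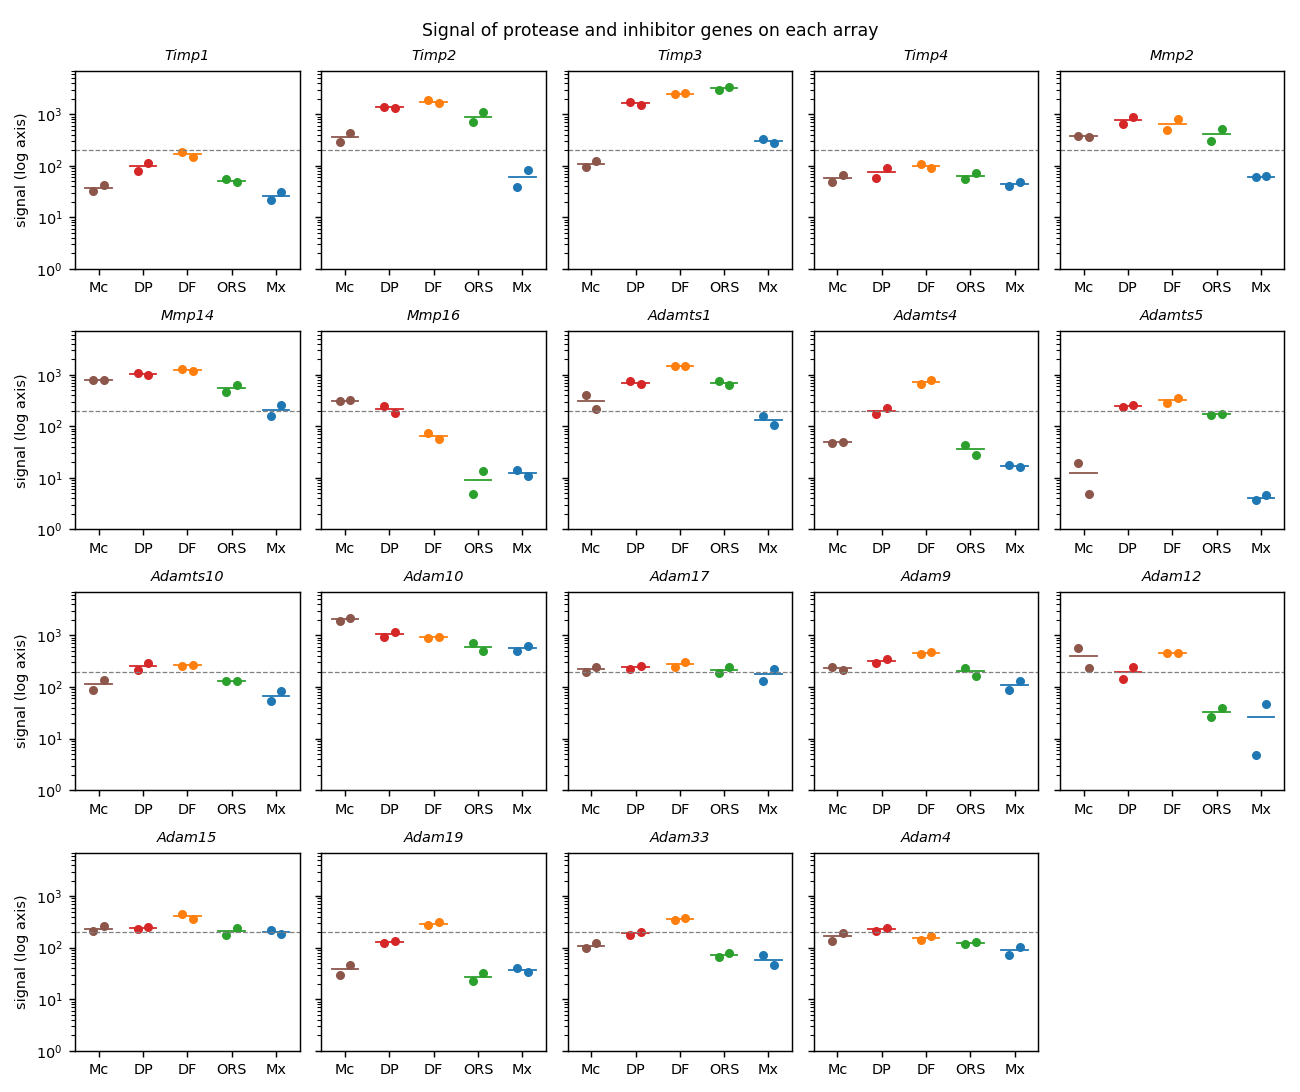
Signal on a log axis of the 17 members that reached 200, and of Timp1 and Timp4, on each of the 10 arrays. Points are arrays, horizontal lines are the means of 2 arrays, and the dashed line is the bound of 200; most panels peak in DF and fall to their lowest in Mx, while Adam10 and Mmp16 peak in Mc and Timp3 in ORS.

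The first comparison asked how the dermal populations DF and DP differed from the epithelial populations Mx and ORS. Here 17 members were higher, a share of 31.5% against 8.32% of all genes, and 0 were lower, against 3.41% of all genes. A difference passed with a limma adjusted p under 0.05 over all probe-sets and at least 2-fold, on log2(signal + 50). That scale understates the change of dim genes. With no fold limit 29 were higher (29.8% of all genes) and 0 lower (14.7% of all genes), and in limma 0 were lower by an unadjusted p under 0.05. The median log2 difference of the members was 0.40, against 0.13 for all genes. All 4 dermal arrays lay above all 4 epithelial ones for 22 members (40.7%), and for 24.4% of all genes. The dermal arrays were brighter as a whole, and a common median took 0.27 off each log2 difference. The count of higher members was then 12 (5.63% of all genes), all among the 17, and Adam9, Adamts10, Adamts15, Mmp17 and Timp1 no longer passed. Within the chip lots, 15 members were at least 2-fold higher in lot A (8.50% of all genes) and 12 in lot B (6.74% of all genes), where Mx was absent. The pericyte and smooth muscle genes and the melanocyte genes were also higher in the dermal arrays, with the sums given above. Their part in these differences was not tested.

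**Figure D3:**
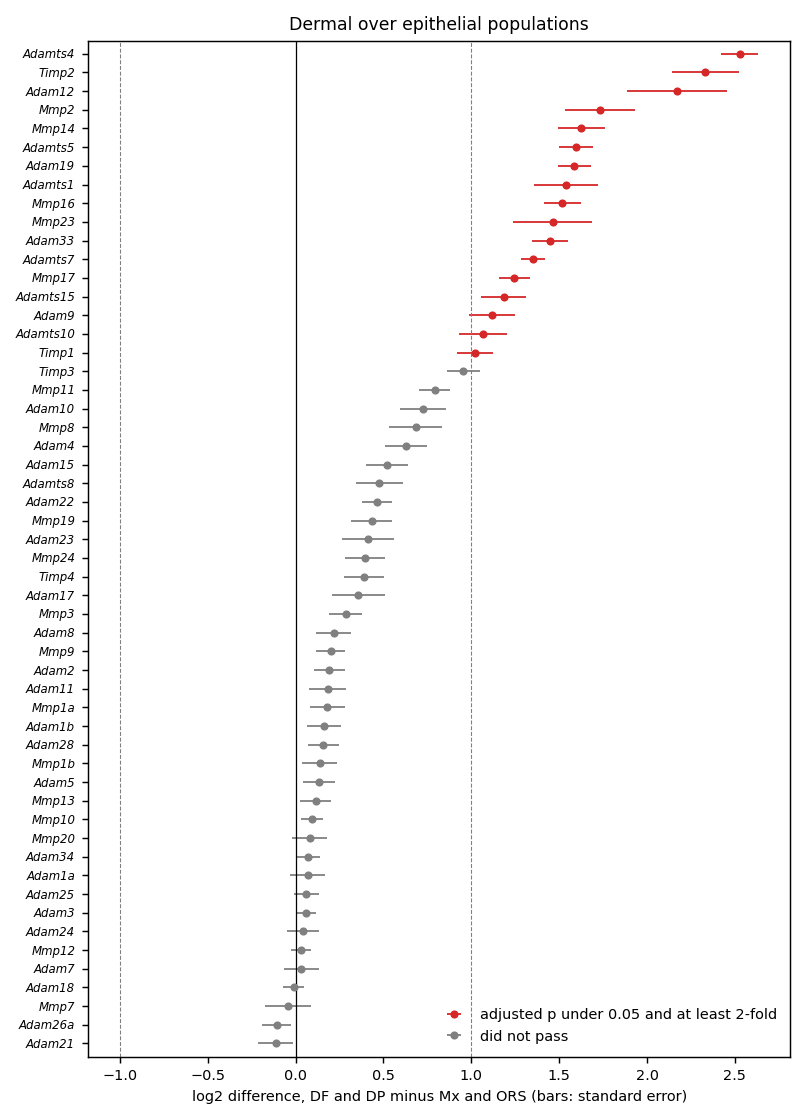
Log2 difference on log2(signal + 50) between DF and DP and Mx and ORS for all 54 members. Points are estimates, bars are standard errors, red points passed the test, and dashed lines mark 2-fold; 17 genes lie past 2-fold to the right and none to the left.

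Of the 4 inhibitors, Timp2 and Timp3 reached the bound. Timp2, which blocks matrix metalloproteinases and also serves Mmp14 as an adaptor for pro-Mmp2, stood at 1398 and 1334 in DP, 1844 and 1645 in DF, 695 and 1092 in ORS and 39 and 82.1 in Mx. The Mx arrays were far below all the others, and Mc, with 282.4 and 424.1, lay between them and ORS. Timp2 was 5.03-fold higher in DF and DP than in Mx and ORS (log2 difference 2.33 ± 0.19 SE, adjusted p = 7.7e-05), and all 5 of its other probe-sets differed in the same direction, 4 of them past the threshold. Against ORS alone the log2 difference was 0.62 ± 0.27 SE for DP (adjusted p = 0.149) and 0.96 ± 0.27 SE for DF (adjusted p = 0.043), both under 2-fold. Against Mx it was 3.71 ± 0.27 SE for DP (adjusted p = 7.1e-05) and 4.05 ± 0.27 SE for DF (adjusted p = 4.5e-05).

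Timp3 is the Timp that binds to the ECM and also blocks Adam17 and the aggrecan-cleaving ADAMTS proteases. It read 94.5 and 121.5 in Mc, 1721 and 1509.7 in DP, 2419.7 and 2542.5 in DF, 3010 and 3313 in ORS and 327.2 and 273.7 in Mx. ORS and DF were thus brightest, and their difference did not pass the test (DF over ORS, -0.34 ± 0.13 SE, adjusted p = 0.116). Within the epithelium, ORS was 9.18-fold above Mx (3.20 ± 0.13 SE, adjusted p = 7.2e-05), and DP over ORS was -0.95 ± 0.13 SE (adjusted p = 0.002), just short of 2-fold. Mc was the lowest population, 2.22-fold below Mx (adjusted p = 8.1e-04) and 16.1-fold below DF (adjusted p = 5.1e-06). Timp3 did not pass 2-fold between the dermal and the epithelial pair (0.95 ± 0.09 SE, adjusted p = 1.9e-04), and in lot B, where ORS alone stood for the epithelium, the difference was -0.74.

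Timp1, the broad inhibitor that is induced in many injured tissues, did not reach the bound. It read 80 and 114 in DP and 185.1 and 150.2 in DF, against 55.5 and 47.5 in ORS and 21.4 and 30.4 in Mx. The dermal arrays were all higher, 2.03-fold (1.02 ± 0.10 SE, adjusted p = 2.3e-04), a margin that fell under 2-fold at a common median (0.75) and without DF replicate 1, DP replicate 2, Mx replicate 1 or ORS replicate 2. Timp4, known from heart and fat, lay between 40.7 and 105.9 on all arrays and did not reach 2-fold in any of the 4 comparisons.

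Among the metalloproteinases, the gelatinase Mmp2 and its membrane-bound activator Mmp14 reached the bound in Mc, DP, DF and ORS. Mmp14 stood at 1106 and 1013 in DP and 1318 and 1175 in DF, against 467 and 626 in ORS and 162.3 and 254.6 in Mx. In Mc it was 793 and 779.5, between the dermal and the epithelial populations. Every DF and DP array lay above every ORS and Mx array, by 3.09-fold on average (1.63 ± 0.14 SE, adjusted p = 8.5e-05). Mmp2 stood at 659 and 887 in DP and 486 and 791 in DF, against 297.1 and 516.4 in ORS and 61.3 and 62.3 in Mx. One ORS array lay above one DF array, and the 3.32-fold difference (1.73 ± 0.20 SE, adjusted p = 4.0e-04) was again widest against Mx. Between DF and ORS alone Mmp2 did not pass (0.60 ± 0.28 SE, adjusted p = 0.186). Its second probe-set was 2.26 ± 0.16 SE higher in DF and DP (adjusted p = 3.9e-05).

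Mmp2, Mmp14 and Timp2, whose proteins meet in 1 complex at the cell surface, thus shared an order, with DF and DP at the top and Mx at the bottom. The order was not particular to these genes. Of the 17 members at the bound, 12 were highest in DF and 2 in DP, and 14 were lowest in Mx. These 17 were picked by their signal, 5 of them through a single population, so the tally is a description and not a test of a shared order. Mmp2, Mmp14 and Timp2 all passed in ORS over Mx as well. In lot B, where DF and DP were set against ORS without Mx, the log2 differences were 0.65 for Mmp2, 0.76 for Mmp14 and 0.42 for Timp2, each under 2-fold.

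Mmp16, a second membrane-type enzyme that can also activate pro-Mmp2, was distributed in another way. It read 306.3 and 325.9 in Mc, 248 and 179.1 in DP, 74.7 and 58 in DF, 4.9 and 13.7 in ORS and 14.1 and 10.9 in Mx. Mc arrays were highest, although Mc over DP did not pass (0.49 ± 0.15 SE, adjusted p = 0.071). On the second Mmp16 probe-set the Mc arrays (120.2 and 140.6) overlapped with those of DP (129.9 and 138.9). DP was 2.25-fold above DF (1.17 ± 0.15 SE, adjusted p = 0.003), and without DP replicate 1 this was 0.98 (adjusted p = 0.018), under 2-fold. The second probe-set also differed by under 2-fold (0.73 ± 0.10 SE, adjusted p = 0.003). Melanocyte genes were also higher in DP than in DF. Summed over Mc1r, Tyr, Kit and Mlph, they stood at 4025 in DP replicate 1 and 2083 in DP replicate 2, against 496.3 to 1590 in DF. Mmp16 was the higher in DP replicate 1 on the first probe-set, but the lower there on the second (129.9 against 138.9). The part of melanocyte genes in the difference between DP and DF was not tested. Mmp17, also of the membrane type but anchored by a lipid, stayed below the bound with 107.4 and 109.1 in DP and 106.7 and 118.7 in DF, against at most 23.9 in ORS and Mx.

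Of the 7 ADAMTS genes, 6 were higher in DF and DP (8.32% of all genes). The exception was Adamts8, at most at 48, which is 1 of 5 genes on the array listed as cleaving versican and aggrecan. At a common median, where 5.63% of all genes passed, Adamts10 and Adamts15 no longer did. Adamts4 stood at 172.8 and 228.1 in DP and 650.3 and 786.7 in DF, against 44 and 28.2 in ORS and 17.5 and 16.1 in Mx. It was the member with the largest difference of this comparison, 5.77-fold (2.53 ± 0.11 SE, adjusted p = 3.9e-06). Adamts5, the main aggrecanase of mouse cartilage, read 243 and 257.1 in DP, 285.7 and 351.4 in DF, 167.7 and 177.7 in ORS and 3.7 and 4.6 in Mx. ORS was thus just under the bound and Mx near 0, and Adamts5 was 4.11-fold higher in ORS than in Mx (2.04 ± 0.14 SE, adjusted p = 3.1e-04).

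Adamts1, which lies beside Adamts5 on chromosome 16, read 408.9 and 214.3 in Mc, 753 and 657 in DP, 1517 and 1468 in DF, 773 and 647.5 in ORS and 160.2 and 107 in Mx. DP and ORS arrays overlapped (DP over ORS, -0.01 ± 0.26 SE, adjusted p = 0.988), and DF stood above both. Adamts15, a close relative of Adamts1, reached 189.1 and 187 in DP, under the bound, and 119.7 and 128.7 in DF. Of the remaining pair, Adamts10, mutated in human Weill-Marchesani syndrome, read 213 and 288.6 in DP and 259.5 and 269.6 in DF, against at most 133.2 in ORS and Mx. It passed narrowly (1.07 ± 0.14 SE, adjusted p = 7.2e-04), and the difference was 0.98 without DP replicate 2 and 0.97 without Mx replicate 1. Adamts7 peaked at 118.6, in DP.

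Of the 9 genes listed as ADAM sheddases, 7 reached the bound, and Adam8 and Adam28 stayed at 81.3 or less. Adam10, which carries out the first cut of Notch receptors after they bind a ligand, read 1938 and 2206 in Mc, 944.4 and 1160 in DP, 906.4 and 947 in DF, 709 and 493.5 in ORS and 510.9 and 614 in Mx. All DF and DP arrays were above all ORS and Mx arrays, but by less than 2-fold (0.73 ± 0.13 SE, adjusted p = 0.003). Adam17, which releases tumor necrosis factor and ligands of the epidermal growth factor receptor, lay close to the bound throughout. It read 198.4 and 247 in Mc, 227.6 and 261.4 in DP, 248.3 and 304.9 in DF, 183.5 and 246.2 in ORS and 132.1 and 220.2 in Mx. The populations overlapped, and none of the 10 pairs passed, with the widest difference for DF over Mx (0.55 ± 0.21 SE, adjusted p = 0.089).

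Adam12, Adam19, Adam33 and Adam9 were higher in the dermis. Adam12, known for its induction in muscle and in stromal cells, read 143.9 and 248.7 in DP and 461.9 and 449.2 in DF, against 25.7 and 39.2 in ORS and 4.7 and 47.2 in Mx (4.51-fold, 2.17 ± 0.29 SE, adjusted p = 8.1e-04). Adam19, a sheddase of neuregulin, read 121.2 and 134.7 in DP and 270 and 310.7 in DF, against at most 40.3 in ORS and Mx (1.59 ± 0.09 SE on the log2 scale, adjusted p = 1.7e-05). Adam33, linked to human asthma, read 176.5 and 200.7 in DP and 348.8 and 372.9 in DF, against at most 80.5 in ORS and Mx (2.73-fold, 1.45 ± 0.10 SE, adjusted p = 4.1e-05). These 3 genes had separate dermal and epithelial arrays, and DP lay below DF by less than 2-fold for Adam19 (-0.93 ± 0.13 SE, adjusted p = 0.004) and Adam33 (-0.79 ± 0.15 SE, adjusted p = 0.016). For Adam9 the margin was smaller, with 287.1 and 353.1 in DP and 443.8 and 468 in DF, against 236 and 166 in ORS and 89.2 and 132.3 in Mx (1.12 ± 0.13 SE, adjusted p = 4.4e-04). Adam15, whose outer part carries an integrin-binding loop, was brightest in DF at 452.5 and 363.5 and otherwise between 175.9 and 261.4. It rests on a probe-set of the kind that can bind more than 1 transcript, while the other 3 probe-sets of Adam15 stayed at 122.8 or less.

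The average over Mx and ORS hid a difference between them. In single pairs, only Adam12, Adam19, Adamts4, Adamts7, Mmp17 and Mmp23 passed in DF and in DP over both ORS and Mx, 6 members (11.1%) against 3.25% of all genes. For Timp2, Mmp2, Mmp14, Adamts1 and Adamts5 the difference from Mx was larger than that from ORS, as the tests of ORS over Mx show.

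**Figure D4:**
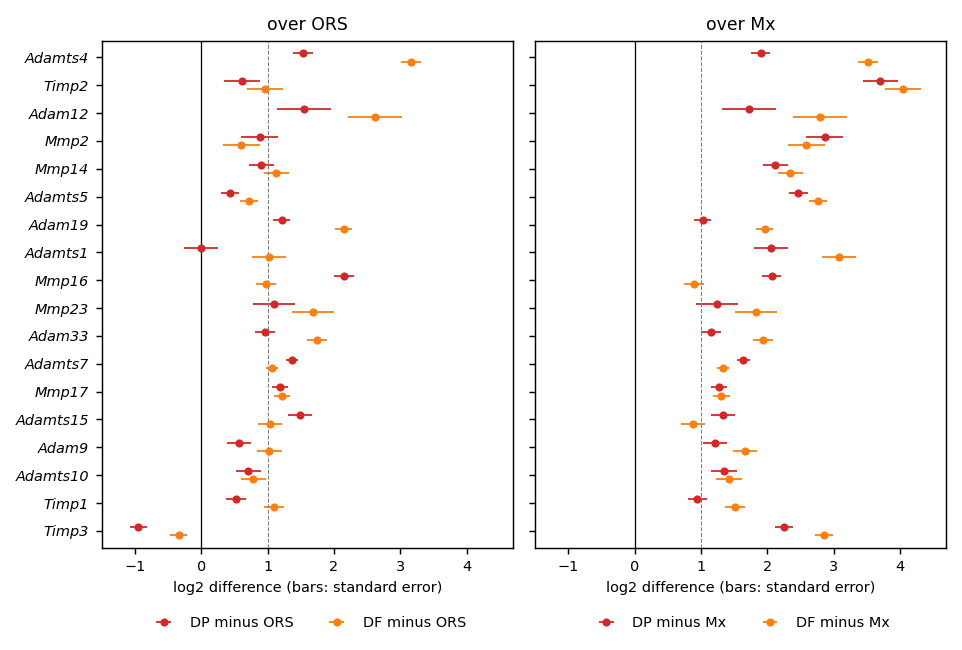
Log2 differences on log2(signal + 50) of DP (red) and DF (orange) over ORS in the left panel and over Mx in the right panel. Bars are standard errors, the dashed line is 2-fold, and the 17 members that passed are shown with Timp3; Timp3 lies below 0 over ORS and past 2-fold over Mx.

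ORS and Mx, the epithelial populations, were then set against each other. Of the 54 members, 6 (11.1%) were higher in ORS, where 4.13% of all genes were, and 0 were lower, against 0.944% of all genes. In limma 0 were lower by an unadjusted p under 0.05 as well. The 6 that were higher were Timp3, Timp2, Adamts1, Adamts5, Mmp2 and Mmp14. Timp2 was 8.51-fold higher (3.09 ± 0.27 SE, adjusted p = 7.1e-04), Adamts1 4.17-fold (2.06 ± 0.26 SE, adjusted p = 0.003) and Mmp2 3.97-fold (1.99 ± 0.28 SE, adjusted p = 0.006). For each of the 6, both ORS arrays lay above both Mx arrays. The difference for Mmp14 (1.22 ± 0.19 SE, adjusted p = 0.009) was the smallest, and it did not hold without ORS replicate 2 (1.02, adjusted p = 0.063) or, by fold, without Mx replicate 1 (0.96). In a fit of ORS and Mx alone, neither Mmp14 (adjusted p = 0.136) nor Mmp2 (adjusted p = 0.075) passed. The actin 3′/5′ ratio was 1.22 and 1.47 in ORS against 2.09 and 1.73 in Mx, and the sum of pericyte and smooth muscle genes, mostly Acta2, was 2042 to 2743 in ORS against 306 to 360.4 in Mx. The part of both in these differences was not tested. Mx arrays lay in lot A only, and the ORS array of that lot was also at least 2-fold above them for each of the 6. All 6 also passed at a common median signal, which took 0.18 off the log2 differences.

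Between the papilla and the other dermal cells, the shares of members that passed were near those of all genes. Set against DF, DP was higher for 1 member, Mmp16 (1.85%, against 2.13% of all genes). It was lower for 2, Adamts4 and Adamts1 (3.70%, against 3.31% of all genes). Adamts4 was 3.08-fold lower in DP (-1.62 ± 0.15 SE, adjusted p = 6.8e-04), and its second probe-set differed likewise (-1.76 ± 0.24 SE, adjusted p = 0.004). Adamts1 was 2.05-fold lower (-1.03 ± 0.26 SE, adjusted p = 0.047), and this did not pass when either DP array, either DF array or either ORS array was left out, with an adjusted p between 0.072 and 0.202. Timp3 was lower in DP by under 2-fold (-0.61 ± 0.13 SE, adjusted p = 0.029). The differences of Mmp14 (-0.22 ± 0.19 SE, adjusted p = 0.585), Timp2 (-0.34 ± 0.27 SE, adjusted p = 0.544) and Adamts5 (-0.29 ± 0.14 SE, adjusted p = 0.278) did not pass.

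Only Adamts1 and Adamts4 were at least 2-fold higher in 1 population than in each of the other 4, both in DF, a share of 3.70% where all genes had 1.96%. No member was so placed in Mc (1.15% of all genes), DP (1.32%), ORS (0.855%) or Mx (0.484%), nor with unadjusted p-values in limma. Pericyte, endothelial and red cell genes were also highest in DF, as given above, and their part in the levels of Adamts1 and Adamts4 was not tested.

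Mc were compared with the other 4 populations. Higher in Mc were 3 members, Adam10, Mmp16 and Adam12 (5.56%, against 3.13% of all genes). Lower were 2, Timp3 and Adamts5 (3.70%, against 5.67% of all genes). Adam10 lay above every other array in both Mc arrays and was 2.63-fold higher than the mean of the others (1.40 ± 0.14 SE, adjusted p = 4.9e-04). Both other Adam10 probe-sets passed in the same direction. Over the nearest population, DP, the difference was 1.93-fold (0.95 ± 0.18 SE, adjusted p = 0.012). Mmp16 was 3.56-fold higher (1.83 ± 0.12 SE, adjusted p = 7.0e-05). The second probe-sets of Mmp16 (0.74), Adam12 (0.49) and Adamts5 (-0.81) kept the sign but stayed under 2-fold. Adam12 read 573.5 in one Mc array and 238.2 in the other, and its difference (1.37 ± 0.32 SE, adjusted p = 0.019) was 0.81 without Mc replicate 1 (adjusted p = 0.182). Timp3 was 9.36-fold lower (-3.23 ± 0.10 SE, adjusted p = 9.5e-06), and all 3 of its other probe-sets passed in the same direction. Adamts5, at 19.9 and 4.9, was 3.08-fold lower (-1.62 ± 0.11 SE, adjusted p = 8.3e-05). Mc thus held the highest signal of Adam10 and the lowest of Timp3 among the 5 populations.

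Other genes of the pathway were read from lists of regulators, plasminogen genes, further metzincins and substrates. Of 16 regulators on the array, 6 were higher in DF and DP than in Mx and ORS (8.32% of all genes) and 0 lower (3.41% of all genes), with a median log2 difference of 0.65 (all genes, 0.13). At a common median 3 of the 6 passed, and Pcsk6, Rhbdf1 and Tspan15 did not. The largest difference was that of Reck, a membrane-anchored inhibitor of Mmp2, Mmp9 and Mmp14, with 552 and 727 in DP and 426.8 and 499.3 in DF, against 37.4 and 25.5 in ORS and 1.9 and 10.7 in Mx (8.76-fold, 3.13 ± 0.17 SE, adjusted p = 1.1e-05). The separation of the dermal from the epithelial arrays was complete. Spock1, a proteoglycan that inhibits pro-Mmp2 activation, was the next (1.63 on the log2 scale), through DP. It read 327.2 and 387.1 in DP and 107.7 and 20.3 in DF, against at most 33.2 in ORS and Mx, and was 3.86-fold higher in DP than in DF (adjusted p = 0.033). Pcsk6, a proprotein convertase, was also among the 6 and was 2.55-fold lower in DP than in DF (adjusted p = 0.001).

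Among the regulators were 6 tetraspanins that escort Adam10 to the cell surface. Tspan10 passed as higher in Mc (3.13% of all genes), and Tspan15 and Tspan17 as higher in DF and DP (8.32% of all genes). Tspan10 read 569.4 and 847 in Mc and at most 178.7 elsewhere, 5.63-fold higher in Mc (2.49 ± 0.20 SE, adjusted p = 1.8e-04). Tspan15 and Tspan17 were higher in DF and DP (1.00 ± 0.15 SE, adjusted p = 0.002, and 1.47 ± 0.20 SE, adjusted p = 9.4e-04). Tspan15 did not pass at a common median, and Tspan17 reached the bound in no population. Tspan5 read 389.3 and 648 in Mc and 172.9 to 318.4 elsewhere, a difference under 2-fold (0.89 ± 0.21 SE, adjusted p = 0.020). Tspan14 and Tspan33 passed in none of the 4 comparisons.

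In the plasminogen list, Plat, the tissue plasminogen activator, was the only one of 5 genes on the array to reach 200. It stood at 1821 and 1346 in Mc and 262.9 and 275.7 in DP, and it was 7.48-fold higher in Mc than in the other 4 (2.90 ± 0.12 SE, adjusted p = 1.9e-05). Plau, the urokinase activator, read at most 48.5. Among 10 further metzincins and ADAMTS-like genes, Pcolce, the enhancer of procollagen C-proteinase, was the one that passed between dermis and epithelium, 40.3-fold (5.33 ± 0.13 SE, adjusted p = 5.0e-07). Bmp1, the procollagen C-proteinase itself, was higher in DF and DP by under 2-fold (0.92 ± 0.13 SE, adjusted p = 0.001). It was 2.65-fold higher in ORS than in Mx (1.41 ± 0.19 SE, adjusted p = 0.004).

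The substrates were higher in the dermis for 8 of 12 genes (8.32% of all genes) and lower for 1, Dcn (3.41% of all genes), with a median log2 difference of 2.40 (all genes, 0.13). They included the fibrillar collagen genes Col1a2 (4.08) and Col3a1 (3.48 on the same log2 scale). In lot B, without Mx, the difference of Dcn was 0.30, and those of Col4a1 (0.60), Col4a2 (0.73) and Bgn (0.90) were under 2-fold. In Mc, 7 of the 12 lay lower than the average over the rest (5.67% of all genes). Vcan, the versican gene, stood at 3889 and 4012 in DP and 1019 and 893 in DF, and was 3.98-fold higher in DP (1.99 ± 0.14 SE, adjusted p = 2.3e-04). Acan, the aggrecan gene, stood at 72.4 and 105.1 in DP and 659 and 577 in DF, and was 4.84-fold lower in DP (-2.27 ± 0.14 SE, adjusted p = 1.3e-04). Vcan and Acan thus lay apart, Vcan highest in DP and Acan in DF. Of the 5 ADAMTS genes on the array listed as cleaving versican and aggrecan, Adamts4, Adamts1, Adamts5 and Adamts8 were highest in DF and Adamts15 in DP. Adamts8 was dim there, at 40.7 and 48. Adamts9 and Adamts20, also on that list, had no probe-set naming them alone and were not measured. Only Adamts4 and Adamts1 passed between DP and DF. Col4a1, a chain of basement membrane collagen, was also higher in ORS than in Mx (4.00 ± 0.17 SE on the log2 scale, adjusted p = 7.2e-05).

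**Figure D5:**
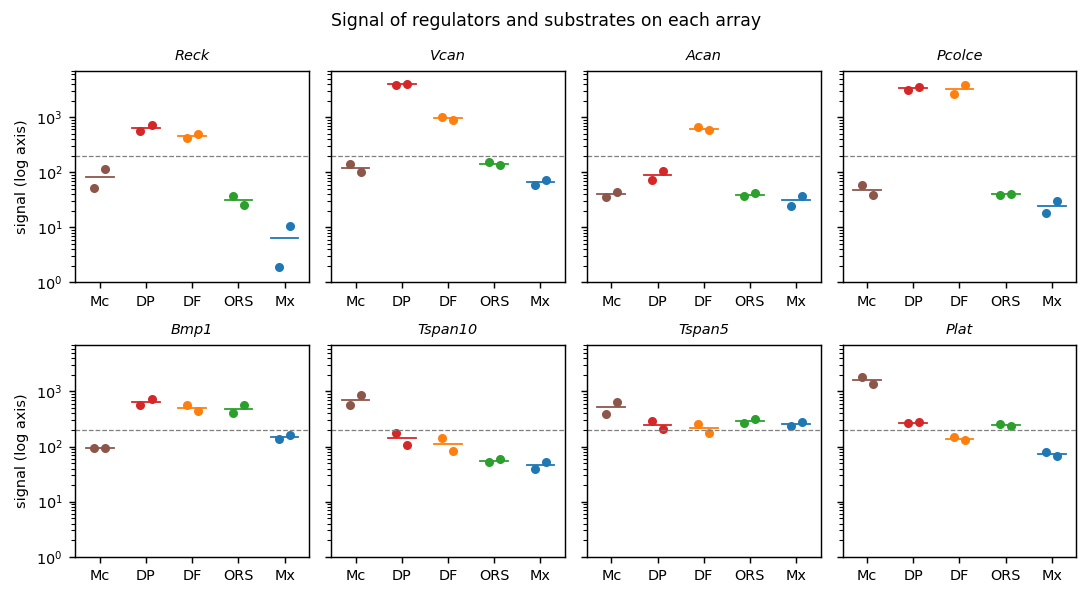
Signal on a log axis of 8 regulators, partners and substrates on each of the 10 arrays. Points are arrays, horizontal lines are means of 2 arrays and the dashed line is 200; Reck, Vcan and Pcolce are bright in DP and DF, Acan in DF alone, and Tspan10 and Plat in Mc.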

How the data were processed

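Expression was measured in 5 sorted populations of P4 mouse skin, with 2 Affymetrix MOE430A arrays each. The deposited values are linear intensities of 22690 probe-sets, made by the authors with MAS5. Array description files gave the chip lot. Detection calls and the study's Robust Multi-Chip estimates were not used here. The 64 control probe-sets were left out. The other 22626 entered a limma fit (limma 3.58.1 under R 4.3.3) of log2(signal + 50), with a mean for each population, no block and no filter on signal, so that every member was tested. Its residual degrees of freedom were 5, its prior degrees 2.56 and its median residual SD 0.168. P-values were adjusted by Benjamini-Hochberg over all probe-sets within a comparison, and a call needed an adjusted p under 0.05 and at least 2-fold. Since 2 arrays against 2 allow no exact permutation p under 0.333, adjusted p-values here depend on a spread shared among the populations and moderated across probe-sets. The number of arrays limits the precision.

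Of the probe-sets, 20380 named 1 gene, 691 several and 1555 none. The gene families to be described, and the role groups, marker lists and pathway lists, were chosen with earlier results of these data known, while membership followed from the symbol alone. Values per array are given for members at 200 or more in both arrays of a population and for the Timp genes, and for list genes among those that passed. Tspan5, Tspan14, Tspan15, Tspan33 and Plau were named after their values were seen. As alternatives, the pseudocount, the bound, the fold limit, the normalization, the rule for several probe-sets, the samples fitted, a signal filter, a mean-variance trend and a block for replicate number or chip lot were changed 1 at a time, and each array was left out in turn. Upstream sequences came from RefSeq on GRCm38.p6, and gene order from RefSeq. The fit was tested on simulated data. Python 3.11.15 with pandas 2.3.3, numpy 2.4.6 and matplotlib 3.10.9 was used for tables and plots.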

Additional observations from a re-analysis of the deposited data

How the results depend on the processing

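Of 31 differences of members that passed, 21 passed under every alternative in which the gene was tested, none reversed, and 35 of 610 refits lost the call. Of 301 recounts, 263 stayed within 1.5 times. With no fold limit, 29 members were higher in DF and DP, 5 lower in DP over DF, 13 lower in Mc, 1 was highest in Mc over each other population and 4 in DF. With a pseudocount of 1, 0 were higher and 1 lower in DP over DF, 7 were lower in Mc and 1 was highest in DF, and with 16, 4 were lower in Mc. Quantile normalization left 1 lower in DP over DF and 1 highest in DF, and the mean of probe-sets 0 higher in DP over DF. A common median gave 1 highest in Mc, 1 in DF and 4 members at 200 in Mx. A bound of 100 counted 21 members in DP, 12 in ORS and 6 in Mx, a bound of 400 counted 2 in Mc, 6 in DP, 9 in DF and 1 in Mx, and a bound on the mean of arrays 4 in Mx. Causes were not tested.

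Leaving out 1 array at a time gave 15 to 17 members higher in DF and DP, 0 to 1 higher and 1 to 2 lower in DP over DF, 5 to 6 higher in ORS over Mx, and 2 to 3 higher and 2 to 3 lower in Mc. It gave 0 to 1 member highest in Mc and 1 to 2 in DF. By 1 array alone, 9 to 10 members reached 200 in Mc, 13 to 16 in DP, 15 to 16 in DF, 7 to 8 in ORS and 3 to 4 in Mx. A replicate block changed no call, with 17 members higher in DF and DP and 6 higher in ORS over Mx. Same-numbered arrays correlated between -0.047 and 0.271 in their deviations. The highest values were those of ORS with Mx (0.271) and of DP with DF (0.198), which are compared above. The labels do not say whether same-numbered arrays shared a preparation, and the main fit did not pair them. Signals near the bound, as for Adam4 and Adam17, are the least certain.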
